A study of Mus musculus with 16 samples.

Results

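Perivascular macrophage markers were represented by 7 genes, Mrc1, Cd163, Lyve1, Pf4, F13a1, Ms4a7 and Cbr2, of the 30743 genes with a transcript cluster of their own on the array. The members were given by name, and each was read from the cluster annotated with its symbol, with no filter on its level. Each of the 7 had 1 such cluster: TC0200000245.mm.1 for Mrc1, TC0600001418.mm.1 for Cd163, TC0700004104.mm.1 for Lyve1, TC0500000843.mm.1 for Pf4, TC1300001814.mm.1 for F13a1, TC1900001131.mm.1 for Ms4a7 and TC1100004229.mm.1 for Cbr2. The values were log2 levels made by RMA, a procedure that corrects for background, normalizes between arrays and summarizes the probes of a cluster. A difference of 1 on this scale is 1 doubling.

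The study sorted cells carrying tdTomato, a red fluorescent protein, as parvalbumin interneurons by fluorescence-activated cell sorting, and hybridized their RNA to Affymetrix mouse transcriptome arrays. The 4 groups of 4 arrays were PVCre striatum, PV-tdTomato striatum, PVCre cortex and PV-tdTomato cortex. The PVCre mice had the genotype PVCre/+; tdTomato/+, in which Cre made in parvalbumin cells switches on a tdTomato reporter, and any cell that once made Cre keeps the reporter. The PV-tdTomato mice had the genotype PV-tdTomato/+ and carried no Cre; their reporter marks parvalbumin expression directly. All mice were labelled C57BL/6J, male and 30 days old, striatal samples were dorsal striatum, and a replicate was 2000 cells from a pool of 2 to 4 mice. The question put to the 7 genes was whether the myeloid signal of the PVCre arrays includes macrophages other than microglia.

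Perivascular macrophages belong to the border-associated macrophages of the brain. They lie between the wall of a vessel and the glial limiting membrane, take up material from blood and interstitial fluid, and are distinct from microglia, the macrophages of the tissue itself. In mouse brain they are known for the mannose receptor MRC1, the scavenger receptor CD163 and, in part of the cells, the hyaluronan receptor LYVE1, which microglia largely lack. PU.1 is the ETS-family transcription factor on which myeloid cells depend, and a GAGGAA core is a form of its binding site.

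RefSeq promoters (GRCm38.p6, 250 bases before to 50 after a start, 5′ to 3′ on the gene's strand) were matched by symbol for 6 of the 7 members, and gave 8 promoters; Lyve1 had no entry. The promoters of the 4 members with the largest line differences are shown because their levels moved together across arrays, and that of Cd163 because its levels correlated least with theirs. Capitals mark GAGGAA, or TTCCTC where the core lies on the other strand. The regions are chr2:14229164-14229463 on the plus strand for Mrc1, chr5:90772185-90772484 on the plus strand for Pf4, chr11:120731972-120732271 on the minus strand for Cbr2, chr19:11336097-11336396 on the minus strand for Ms4a7 (1 of its 2 promoters), and chr6:124304401-124304700 on the plus strand for Cd163.
Mrc1: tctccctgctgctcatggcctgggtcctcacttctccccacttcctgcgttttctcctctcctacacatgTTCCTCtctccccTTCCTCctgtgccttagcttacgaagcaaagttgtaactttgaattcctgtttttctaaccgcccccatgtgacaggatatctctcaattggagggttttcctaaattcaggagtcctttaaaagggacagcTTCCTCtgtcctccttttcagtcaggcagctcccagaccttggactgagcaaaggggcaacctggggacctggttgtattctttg
Pf4: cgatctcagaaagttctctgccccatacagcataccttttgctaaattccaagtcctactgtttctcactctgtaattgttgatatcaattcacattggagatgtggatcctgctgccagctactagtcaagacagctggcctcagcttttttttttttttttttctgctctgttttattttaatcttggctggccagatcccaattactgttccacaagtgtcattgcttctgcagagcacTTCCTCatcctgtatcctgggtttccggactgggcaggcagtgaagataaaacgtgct
Cbr2: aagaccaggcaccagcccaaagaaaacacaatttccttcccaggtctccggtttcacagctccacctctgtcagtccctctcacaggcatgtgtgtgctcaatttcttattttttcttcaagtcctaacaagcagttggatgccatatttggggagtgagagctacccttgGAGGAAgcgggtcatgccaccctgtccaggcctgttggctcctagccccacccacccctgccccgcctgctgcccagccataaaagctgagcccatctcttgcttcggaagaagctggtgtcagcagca
Ms4a7: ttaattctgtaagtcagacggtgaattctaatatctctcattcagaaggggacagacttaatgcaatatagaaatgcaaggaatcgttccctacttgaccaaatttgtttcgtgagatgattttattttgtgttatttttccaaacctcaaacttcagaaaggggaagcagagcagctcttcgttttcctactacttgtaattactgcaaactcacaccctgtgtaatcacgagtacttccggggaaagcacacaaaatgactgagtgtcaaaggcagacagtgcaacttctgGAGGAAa
Cd163: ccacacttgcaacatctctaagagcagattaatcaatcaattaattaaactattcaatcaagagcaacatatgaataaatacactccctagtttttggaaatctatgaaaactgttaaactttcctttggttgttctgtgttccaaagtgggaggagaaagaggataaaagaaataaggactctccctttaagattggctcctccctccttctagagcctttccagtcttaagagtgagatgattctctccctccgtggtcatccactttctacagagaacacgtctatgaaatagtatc
Counted from the start site, the first base of the core lay at -180, -167 and -35 in the Mrc1 promoter, at -8 in that of Pf4, at -79 in that of Cbr2, and at base 44 after the start of Ms4a7. Both strands were searched. GAGGAA was present in 6 of the 8 promoters and in 5 of the 6 members with a promoter, F13a1 being the fifth, against 28.3% of the 32851 promoters in the table. TGCTGA, a sequence bound by MAF factors, was present in 1 of the 8 (Cbr2) against 19.5% of all, and TATAAA in 0 of 8 against 13.6%. None of these matches overlapped one of another motif. A match describes the letters and is not a measured site.

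All 16 arrays were used. Array medians lay between 5.97 and 6.13. The level of Pvalb ranged from 6.69 to 12.48 in PVCre arrays and from 6.96 to 12.17 in PV-tdTomato arrays, and 6 arrays lay at 8.40 or under (PVCre cortex replicates 2 and 4, and PV-tdTomato replicates 3 and 4 of both regions). Xist was above 12 on 6 PVCre and 2 PV-tdTomato arrays and at most 6.56 on the rest, although all mice were labelled male. The median of positive minus negative control probe sets, a measure of array quality, was 3.08 to 3.93 in PVCre arrays, below the 4.16 to 4.85 of PV-tdTomato arrays. The labels give no slide or date. Oligodendrocyte markers were high in every group, with list means of 12.58 to 15.25. Over all genes 22.6% were called higher in PVCre striatum and 24.1% in PVCre cortex. Of 9 oligodendrocyte markers measured, 3 were called higher in PVCre striatum and 6 in PVCre cortex (7 and 8 without the 6 arrays low in Pvalb). Of 11 parvalbumin interneuron genes 2 were called lower in PVCre striatum and 6 in PVCre cortex (6 and 3 without those arrays), among them Slc32a1, the vesicular transporter of GABA, by -3.16 and -4.82. The control separation did not overlap between the lines, so it cannot be told apart from the line. The part of the Xist-high pools, of oligodendrocyte RNA and of interneuron RNA in the results was not tested.

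Of the 3 endocytic receptors of the set, Mrc1 and Cd163 were higher in sorted PVCre cells than in PV-tdTomato cells in both regions, and Lyve1 passed the test in striatum but not in cortex. Mrc1, which binds mannose-bearing glycoproteins, read 7.21, 6.34, 7.50 and 9.34 in PVCre striatum (replicates 1 to 4), against 5.16, 5.22, 5.22 and 5.05 in PV-tdTomato striatum. In cortex it read 7.64, 7.15, 7.80 and 6.35 in PVCre arrays, against 5.00, 5.55, 5.57 and 5.37 in PV-tdTomato arrays. All 8 PVCre arrays lay above all 8 PV-tdTomato arrays, and striatal PVCre replicate 4 stood above the rest. The difference between the lines was 2.43 ± 0.47 (SE, limma, adjusted p = 0.00072) in striatum and 1.87 ± 0.47 (limma, adjusted p = 0.0046) in cortex.

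Cd163, the receptor for haemoglobin bound to haptoglobin, moved less. It read 6.23, 5.91, 5.77 and 5.99 in PVCre striatum, against 5.13, 5.39, 5.40 and 5.07 in PV-tdTomato striatum. In cortex it read 6.13, 6.19, 6.08 and 5.78 in PVCre arrays, against 5.25, 5.38, 5.47 and 5.38 in PV-tdTomato arrays. The groups did not overlap, and replicate 4 was not high here. The difference was 0.73 ± 0.12 (SE, limma, adjusted p = 0.00023) in striatum and 0.68 ± 0.12 (adjusted p = 0.00038) in cortex. All cortical values of both lines were within background, as set out below.

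Lyve1, a hyaluronan receptor that lymphatic endothelium also makes, read 6.11, 5.56, 5.72 and 7.31 in PVCre striatum, against 5.13, 5.16, 5.20 and 5.04 in PV-tdTomato striatum. Cortical PVCre arrays read 6.19, 5.45, 5.97 and 5.53, against 5.15, 5.23, 5.28 and 4.96 in PV-tdTomato arrays. The groups did not overlap, but cortical PVCre replicate 2 lay close to the highest PV-tdTomato array. The difference was 1.04 ± 0.29 (SE, limma, adjusted p = 0.0084) in striatum and 0.63 ± 0.29 in cortex, which missed the threshold (adjusted p = 0.084). The cortical difference was the same size but passed without striatal PVCre replicate 4 (adjusted p = 0.006), since all arrays share 1 estimate of the spread. Of the 4 other lymphatic endothelial genes measured, Flt4 alone was called higher in striatum, at 5.01 in PVCre against 4.62 in PV-tdTomato arrays, and alone in cortex, at 4.90 against 4.64; Mmrn1 stayed between 4.77 and 5.18 on all arrays, and Pdpn and Prox1 were called lower in cortex.

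The secreted and enzymatic members included the largest differences. Pf4, the chemokine CXCL4, read 7.22, 6.62, 8.05 and 9.55 in PVCre striatum, against 5.35, 5.34, 5.54 and 5.31 in PV-tdTomato striatum. In cortex it read 8.56, 7.64, 8.19 and 7.24 in PVCre arrays, against 5.07, 5.59, 5.66 and 5.82 in PV-tdTomato arrays. It was the highest of the 7 markers on every PVCre array, and its PVCre and PV-tdTomato levels did not overlap in either region. The difference was 2.48 ± 0.47 (SE, limma, adjusted p = 0.00061) in striatum and 2.37 ± 0.47 (adjusted p = 0.00082) in cortex. Pf4 is also a product of megakaryocytes and platelets. Of the 7 platelet genes measured, 3 were called higher and 1 lower in each region. Over all genes 22.6% were called higher in striatum and 24.1% in cortex. Treml1 differed by 0.47 in striatum and 0.50 in cortex, Itgb3 by 0.57 and 0.46, Gp6 by 0.69 and 0.33, and Gp9 by -0.34 and -0.32. Ppbp, a platelet chemokine gene, was not called. It averaged 4.74 in PVCre striatum against 4.89 in PV-tdTomato striatum, and 4.74 against 4.88 in cortex. The part of platelet RNA in the Pf4 difference was not tested.

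Cbr2, a carbonyl reductase, read 6.76, 6.37, 7.18 and 8.72 in PVCre striatum, against 5.05, 4.91, 5.01 and 5.14 in PV-tdTomato striatum. In cortex it read 7.61, 6.75, 7.73 and 6.47 in PVCre arrays, against 4.97, 5.34, 5.21 and 5.22 in PV-tdTomato arrays. No PVCre array overlapped a PV-tdTomato array, and the difference was 2.23 ± 0.40 (SE, limma, adjusted p = 0.00038) in striatum and 1.96 ± 0.40 (adjusted p = 0.001) in cortex. F13a1, the A subunit of coagulation factor XIII, read 6.22, 5.75, 6.20 and 6.71 in PVCre striatum, against 5.27, 5.11, 5.12 and 5.12 in PV-tdTomato striatum. In cortex it read 6.35, 6.21, 6.03 and 5.64 in PVCre arrays, against 5.20, 5.26, 5.44 and 5.23 in PV-tdTomato arrays. Its groups did not overlap either, with smaller differences of 1.07 ± 0.18 (adjusted p = 0.00022) in striatum and 0.78 ± 0.18 (adjusted p = 0.0023) in cortex.

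Ms4a7, a membrane protein of the MS4A family, read 6.78, 5.96, 6.99 and 9.19 in PVCre striatum, against 5.11, 5.00, 4.80 and 4.87 in PV-tdTomato striatum. In cortex it read 6.85, 6.41, 6.97 and 5.79 in PVCre arrays, against 4.96, 5.10, 5.16 and 4.96 in PV-tdTomato arrays. The groups did not overlap, and the spread within PVCre striatum was the widest of any member and group (SD 1.38, n = 4). The difference was 2.29 ± 0.49 (SE, limma, adjusted p = 0.0014) in striatum and 1.46 ± 0.49 (adjusted p = 0.022) in cortex. The cortical call was lost without cortical PVCre replicate 1 (1.34, adjusted p = 0.056) or 3 (1.31, adjusted p = 0.055).

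**Figure D1:**
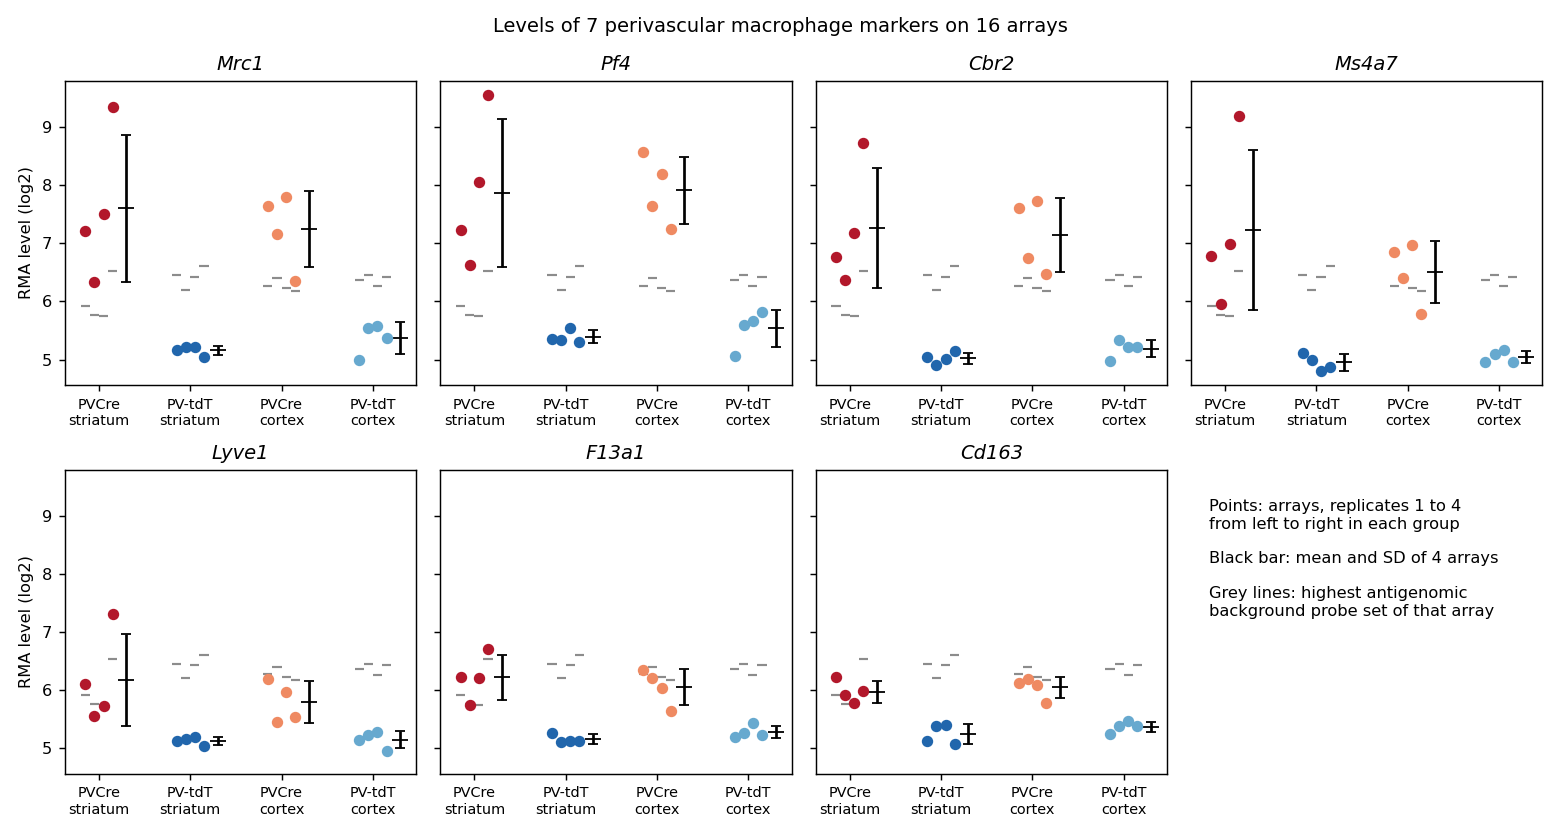
RMA level (log2) of each of the 7 markers on each array, by group, with the mean and SD of 4 arrays as black bars and the highest antigenomic background probe set of each array as grey lines. All PVCre points lie above all PV-tdTomato points of the same region, and no PV-tdTomato point reaches its grey line.

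All 7 members were called higher in PVCre striatum, where 22.6% of all genes tested were called higher, and 6 of 7 in PVCre cortex, where 24.1% were. These 6, all but Lyve1, passed in both regions, against 18.9% of genes. The members' median difference was 2.23 in striatum and 1.46 in cortex, against -0.05 and -0.03 over all genes. Without overlap between the lines, 7 of 7 members were higher in each region, against 21.6% of genes in striatum, 22.0% in cortex and 16.4% in both. In bulk RNA, fewer cells of a type and less RNA per cell cannot be told apart. Without the 6 arrays low in Pvalb, 6 of 7 members were called higher in striatum (Lyve1 1.03, adjusted p = 0.067) and 5 of 7 in cortex (Ms4a7 1.88, adjusted p = 0.1).

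Striatal PVCre replicate 4 was the highest of its group for 6 of the 7 members, all but Cd163. Without it all 7 were still called higher in striatum, with log2 differences of 1.85 for Mrc1, against 2.43 with it, 1.91 against 2.48 for Pf4, 1.63 against 2.29 for Ms4a7, 1.75 against 2.23 for Cbr2 and 0.67 against 1.04 for Lyve1. The F13a1 difference was 0.90 and that of Cd163 was 0.72 without it.

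The PV-tdTomato levels of the members were within background. The highest of the 23 antigenomic probe sets, whose sequences are not of the mouse genome, was taken on each array as the level below which a value has only a bound. Of 28 member values per group, 24 exceeded it in PVCre striatum, 0 in PV-tdTomato striatum, 16 in PVCre cortex and 0 in PV-tdTomato cortex. Set against that level, Pf4 was at least 2.71-fold higher in PVCre striatum and at least 2.89-fold higher in PVCre cortex, Mrc1 at least 2.26-fold and 1.81-fold, Cbr2 at least 1.79-fold and 1.70-fold, and Ms4a7 at least 1.75-fold and 1.09-fold. Without striatal PVCre replicate 4 the striatal values were at least 1.83-fold for Pf4, 1.51-fold for Mrc1, 1.27-fold for Cbr2 and 1.11-fold for Ms4a7. Ms4a7 exceeded the level on 3 of 4 PVCre arrays in cortex and on all 4 in striatum. In PVCre cortex 0 of 4 arrays exceeded it for Cd163, 0 of 4 for Lyve1 and 1 of 4 for F13a1, so the cortical Cd163 call lies wholly within background. In PVCre striatum 3 of 4 exceeded it for Cd163, 2 of 4 for Lyve1 and 3 of 4 for F13a1. The Cd163 mean was 5.97 in PVCre striatum and 6.05 in PVCre cortex, so its unlike counts do not show a higher striatal level. For Lyve1, F13a1 and Cd163 the bound was under 1 and no fold over background is given. The median of the 5222 negative control probe sets, 6.18 to 6.70, was exceeded by 17 of 28 values in PVCre striatum, 0 in PV-tdTomato striatum, 12 in PVCre cortex and 0 in PV-tdTomato cortex, and their 95th percentile, 10.35 to 11.60, by none.

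Genes near background as a whole read higher in PVCre arrays. The 4063 genes with the members' PV-tdTomato level in striatum (4.95 to 5.39) had a median difference of 0.17 and a 90th percentile of 0.80, and 37.7% of them were called higher. In cortex the 4583 such genes (5.04 to 5.54) had a median of 0.19 and a 90th percentile of 0.79, and 37.7% were called higher. A difference as large as that of Pf4 was reached by 0.763% of them in striatum and 0.655% in cortex, of Mrc1 by 0.788% and 1.27%, of Ms4a7 by 0.886% and 2.53%, and of Cbr2 by 1.03% and 1.16%. The other 3 stood out less: F13a1 was matched by 5.64% and 10.4%, Lyve1 by 5.93% and 16%, and Cd163 by 12% and 14.2%.

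**Figure D2:**
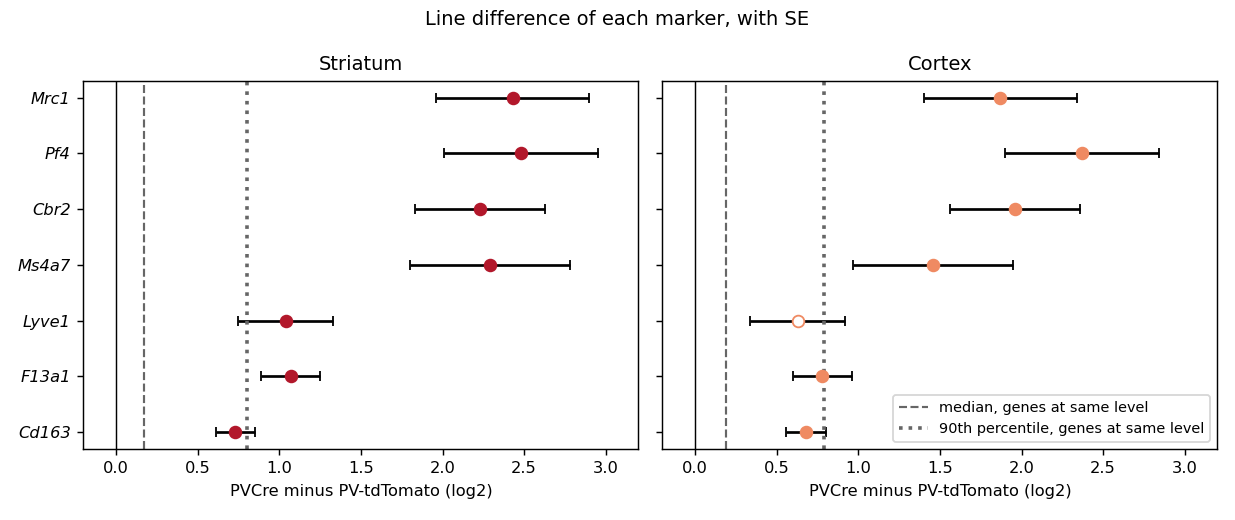
PVCre minus PV-tdTomato difference (log2) of each marker in striatum (left) and cortex (right) with its SE; filled points passed the threshold in limma. Dashed and dotted lines are the median (0.17 and 0.19) and 90th percentile (0.80 and 0.79) of genes with the same PV-tdTomato level; Mrc1, Pf4, Cbr2 and Ms4a7 lie beyond the dotted line in both regions, and Cd163 in neither.

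The markers were not shown to differ between regions. Within the PVCre line, striatum minus cortex was 0.73 ± 0.49 for Ms4a7, 0.39 ± 0.29 for Lyve1, 0.36 ± 0.47 for Mrc1, 0.16 ± 0.18 for F13a1, 0.12 ± 0.40 for Cbr2, -0.05 ± 0.47 for Pf4 and -0.07 ± 0.12 for Cd163 (SE). None of the 7 passed the threshold in limma (lowest adjusted p = 0.57), where 2.48% of all genes did in either direction. In the PV-tdTomato line 0 of 7 passed, against 1.6% of genes, with differences of -0.21 to -0.02. The line difference in striatum minus that in cortex was 0.05 (Cd163) to 0.83 (Ms4a7) and passed for 0 of 7, against 0.0943% of genes. The smallest unadjusted p among the 7 was 0.16 for the region effect in PVCre arrays and 0.25 for the interaction, both for Ms4a7.

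In PVCre striatum the group means ran from Pf4 (7.86 ± 1.27, SD, n = 4) through Mrc1 (7.60 ± 1.26), Cbr2 (7.26 ± 1.03) and Ms4a7 (7.23 ± 1.38) to F13a1 (6.22 ± 0.39), Lyve1 (6.17 ± 0.79) and Cd163 (5.97 ± 0.19). In PVCre cortex the means were 7.91 ± 0.58 for Pf4, 7.24 ± 0.65 for Mrc1, 7.14 ± 0.63 for Cbr2, 6.50 ± 0.53 for Ms4a7, 6.06 ± 0.31 for F13a1, 6.05 ± 0.18 for Cd163 and 5.79 ± 0.36 for Lyve1. Levels of different clusters depend on their probes, so this order is of array levels and not of transcript amounts, and no neighbour in it was tested against the next. In the PV-tdTomato groups the 7 means lay between 4.95 and 5.54.

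Across the 8 PVCre arrays 6 of the markers were correlated with one another, and no correlation of Cd163 with them passed the test. Among Mrc1, Pf4, Cbr2, Ms4a7, Lyve1 and F13a1, the 15 pairwise correlations were r = 0.81 to 0.98 and rho = 0.62 to 1.0 (exact permutation test, two-sided, n = 8, adjusted p of r 0.00052 to 0.02 over 21 pairs, unadjusted p of rho 5e-05 to 0.11). They were 0.48 to 0.95 without the 2 arrays farthest from the median, 0.53 to 0.96 without striatal PVCre replicate 4, and 0.79 to 0.99 with region means removed. The 6 pairs with Cd163 had r = 0.10 to 0.42 and rho = -0.05 to 0.52, and none passed (exact permutation test, adjusted p of r 0.41 to 0.81, unadjusted p of rho 0.2 to 1.0). They were -0.20 to 0.21 without the 2 arrays farthest from the median, 0.10 to 0.50 with region means removed, and 0.21 to 0.62 without striatal PVCre replicate 4, where they overlapped the range of the other pairs. The 2 sets of pairs were not tested against each other. Cd163 spanned only 5.77 to 6.23 on these arrays and was within background on all cortical ones, which limits what its correlations can show. The pairs share arrays and are not independent of each other.

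The array order of the markers was not that of the microglial genes. The 13 measured microglial markers had mean levels of 8.70, 8.43, 7.40 and 7.85 in PVCre striatum (replicates 1 to 4) and 9.18, 7.58, 7.14 and 9.22 in PVCre cortex, against 5.78 to 6.03 and 5.81 to 6.09 in PV-tdTomato arrays. Cortical PVCre replicate 4, highest of its group in the microglial mean, was lowest for all markers but Lyve1, and cortical replicate 3, lowest in the microglial mean, was highest for Mrc1, Cbr2 and Ms4a7. The order was not opposite throughout. Cortical replicate 1, close to replicate 4 in the microglial mean, was highest of its group for Pf4, Lyve1 and F13a1, and next to highest for the other markers. Over the 8 PVCre arrays the members correlated with the microglial mean at r = -0.41 (Mrc1) to -0.02 (Cd163) and rho = -0.57 to 0.07, and none passed (exact permutation test, two-sided, adjusted p = 0.96 for r and 0.98 for rho over 21 relations, n = 8). With 8 arrays such values do not show that the levels are unrelated. Without the 2 arrays farthest from the list median r was -0.50 to 0.25.

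With the mean of the 18 pan-myeloid genes r was -0.35 to 0.06 (exact permutation test, adjusted p = 0.78 to 0.97 over 14 relations, n = 8) and rho was -0.48 to 0.17 (adjusted p = 0.49 to 0.85). With the mean of 23 other border-associated macrophage genes, r was 0.69 to 0.90 for the 6 markers other than Cd163 (exact permutation test, adjusted p = 0.069 to 0.13) and 0.09 for Cd163 (adjusted p = 0.95), so none passed after adjustment. The matching rho values were 0.48 to 0.74 (exact permutation test, adjusted p = 0.32 to 0.49) and 0.05 (adjusted p = 0.93). The 6 values of r were 0.56 to 0.72 without the 2 arrays farthest from the list median. In cortex alone they were 0.35 to 0.86 (n = 4, not tested). The list holds Ccl8, which ran from 4.76 to 11.37 on PVCre arrays and was highest on striatal replicate 4. No r was computed without Ccl8. The endothelial and pericyte lists separated the 2 regions completely among PVCre arrays, so no correlation pooled over regions is given for them.

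**Figure D3:**
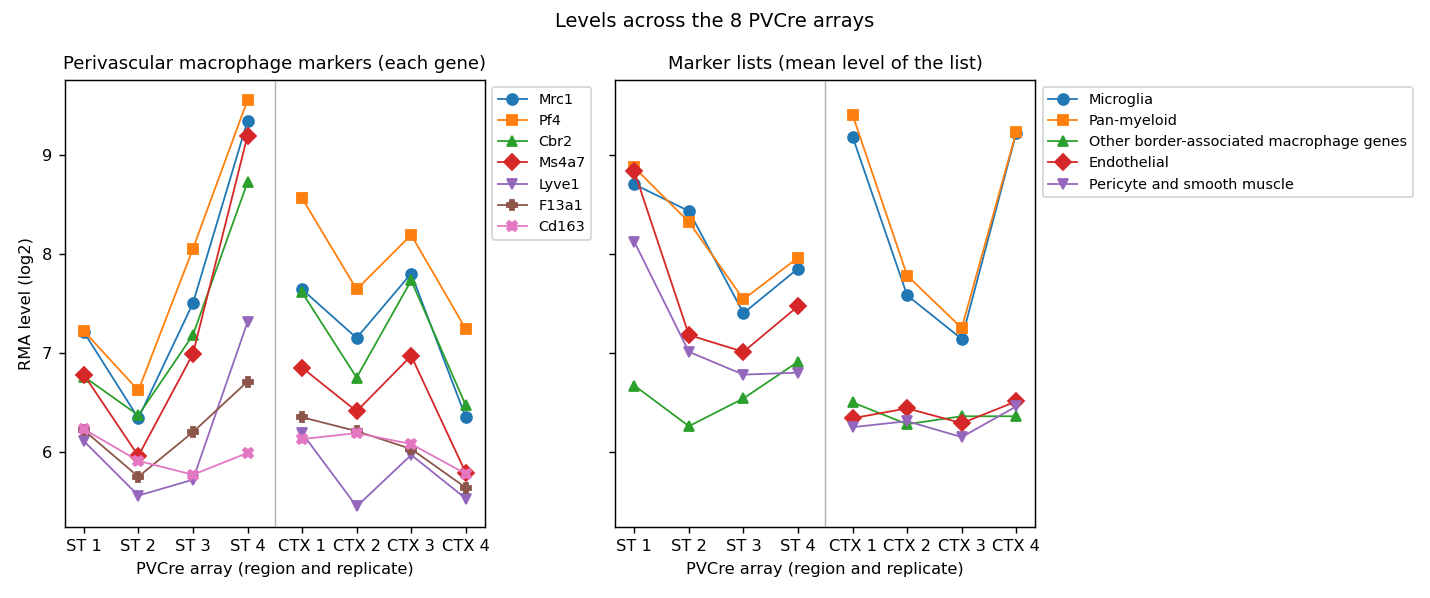
RMA level (log2) on the 8 PVCre arrays (ST striatum, CTX cortex, replicate number) of each of the 7 markers (left) and of the mean of 5 marker lists (right). Striatal replicate 4 is highest in 6 markers and cortical replicate 4 lowest in 6, whereas the microglial and pan-myeloid means are high in striatal replicate 1 and in cortical replicates 1 and 4. Cortical replicate 1 is also the highest cortical array for Pf4, Lyve1 and F13a1.

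Myeloid genes as a class were higher in PVCre arrays. All 18 measured pan-myeloid genes were called higher in both regions, against 18.9% of all genes, with median differences of 2.32 in striatum and 2.57 in cortex. Tyrobp, a signalling adaptor of myeloid receptors, differed by 5.70 ± 0.83 (SE, limma, adjusted p = 7.6e-05) in striatum and 5.65 ± 0.83 (adjusted p = 8.3e-05) in cortex. Of 13 microglial genes 11 were called higher in each region (medians 2.06 and 2.62). They included Tmem119, a microglial membrane protein, at 7.46 in PVCre against 5.86 in PV-tdTomato striatum, and Siglech, a sialic acid receptor, at 10.02 against 6.35. The summed log2 level of the 13 genes was 96.2 to 113.1 in PVCre striatum against 75.2 to 78.4 in PV-tdTomato striatum, and 92.9 to 119.8 in PVCre cortex against 75.5 to 79.1 in PV-tdTomato cortex.

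Of the 23 other genes listed for border-associated macrophages, 18 were called higher in striatum and 17 in cortex, against 22.6% and 24.1% of all genes. None was called lower, and the medians were 0.70 and 0.65. Among genes with the markers' PV-tdTomato level, 37.7% were called higher in each region, and the 90th percentiles of difference were 0.80 and 0.79. The list was not matched for level. Without the 6 arrays low in Pvalb the counts were 18 and 13. Ms4a6c differed by 1.80 ± 0.20 (SE, limma, adjusted p = 7.2e-06) in striatum and 1.40 ± 0.20 (adjusted p = 6.4e-05) in cortex. Stab1, a scavenger receptor, differed by 0.96 and 0.97, and Siglec1, a sialoadhesin, by 0.57 and 0.49. Siglec1 read 5.52 to 5.70 on PVCre arrays, under the highest antigenomic probe set of each, so its calls lie wholly within background. Folr2, a folate receptor of tissue macrophages, averaged 6.36 in PVCre against 6.54 in PV-tdTomato striatum and 6.60 in both groups of cortex, and did not pass.

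Ccl8, a monocyte chemoattractant, had the largest difference of that list in striatum. It read 6.76, 4.76, 9.77 and 11.37 in PVCre striatum, against 3.95 to 4.24 in PV-tdTomato striatum. In PVCre cortex it read 4.90 to 5.38, against 4.06 to 4.31 in PV-tdTomato cortex. Striatal replicates 3 and 4 were far above the other PVCre arrays and replicate 2 was close to the cortical ones. The difference was 4.08 ± 0.97 (SE, limma, adjusted p = 0.003) in striatum, 3.02 without replicate 4 (adjusted p = 0.0057), and 0.98 ± 0.97 (adjusted p = 0.41) in cortex.

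Lists of other blood and vessel cells were counted beside the markers. Over all genes 22.6% were called higher in striatum and 24.1% in cortex. Among genes with the markers' PV-tdTomato level, 37.7% were called higher in each region. The monocyte, neutrophil and lymphocyte counts lay near these shares. Of 11 monocyte and dendritic cell genes, 3 were called higher and 1 lower in striatum, and 2 higher and 2 lower in cortex (2 higher in striatum, and 1 higher and 1 lower in cortex, without the arrays low in Pvalb). Lyz2, a lysozyme of many myeloid cells that is close in sequence to Lyz1, was higher by 2.67 in striatum and 1.12 in cortex, and Ly6c2, close in sequence to the endothelial gene Ly6c1, by 5.22 in striatum. Class II antigen presentation genes were called higher for 2 of 6 in striatum and 5 of 6 in cortex. H2-DMb1 differed by 1.06 in striatum and 1.26 in cortex, and H2-Ab1 by 0.54 and 0.89. H2-Aa, at 5.34 in PVCre against 5.22 in PV-tdTomato striatum, was not called there. Of 10 neutrophil genes 4 were called higher in striatum and 5 in cortex, with medians of 0.38 and 0.44, and of 11 lymphocyte genes 3 in each region, with 2 lower in striatum. Without the arrays low in Pvalb, the higher calls in striatum and cortex were 2 and 4 for class II, 4 and 4 for neutrophil and 3 and 2 for lymphocyte genes.

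Endothelial genes were called higher for 10 of 14 in striatum and 1 of 14 in cortex (medians 1.19 and 0.11). Their summed log2 level was 98.2 to 123.7 in PVCre striatum against 84.9 to 88.0 in PV-tdTomato striatum, and 88.1 to 91.1 in PVCre cortex against 81.1 to 92.7 in PV-tdTomato cortex. Pericyte and smooth muscle genes were called higher for 9 of 12 in striatum, with 2 lower, and for 2 of 12 in cortex, with 2 lower, and fibroblast genes for 3 of 10, with 1 lower, and 1 of 10, with 3 lower. Without the arrays low in Pvalb the higher calls in striatum and cortex were 7 and 0 for endothelial, 6 and 1 for pericyte and 1 and 0 for fibroblast genes. The highest endothelial mean, 8.83, was on striatal PVCre replicate 1, on which Cd163 was at its striatal highest and the other 6 markers were below replicate 4. The part of vascular cells in the markers' differences was not tested.

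**Figure D4:**
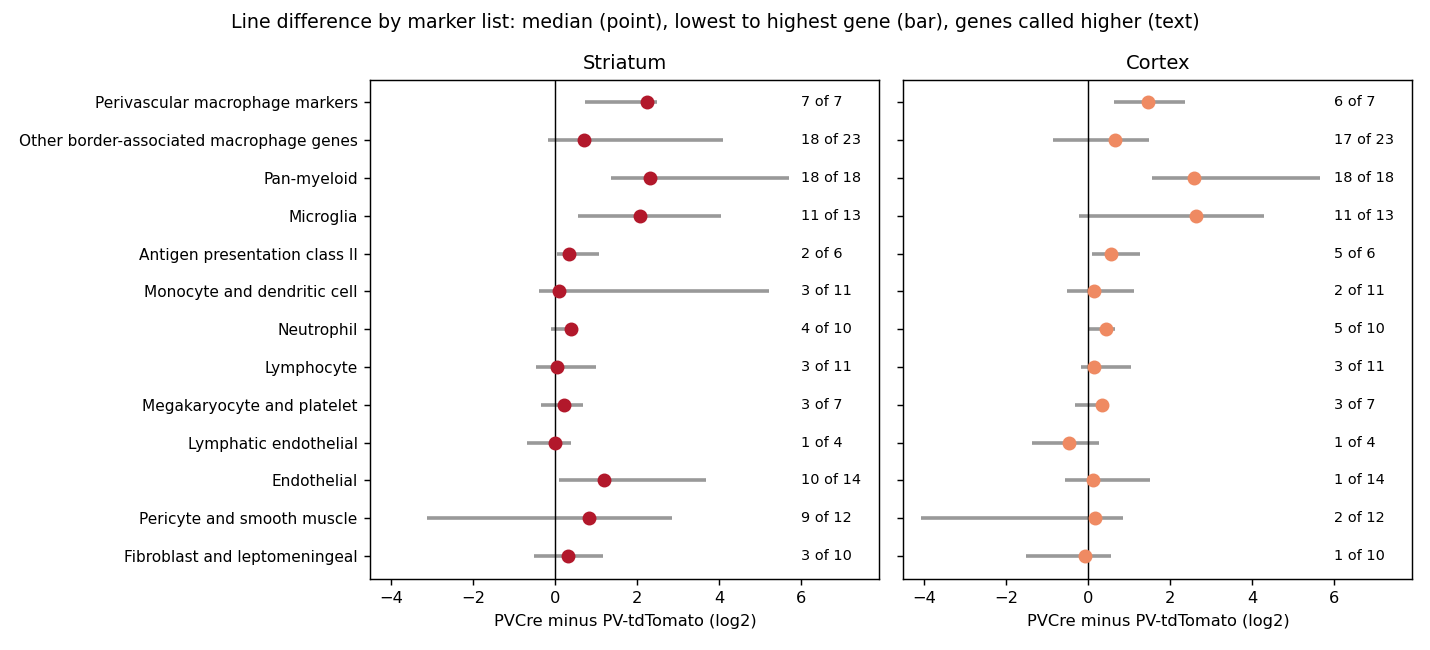
PVCre minus PV-tdTomato difference (log2) by marker list in striatum (left) and cortex (right): median of the list as a point, lowest to highest gene as a bar, and the number of measured genes called higher as text. The markers, with medians of 2.23 and 1.46, compare with 2.32 and 2.57 for the pan-myeloid and 2.06 and 2.62 for the microglial list, and the endothelial list has a median of 1.19 in striatum and 0.11 in cortex.

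Likeness to a marker was the highest Pearson correlation among 20491 genes, members left out, whose mean level over all arrays was not under 5.53. Predicted models, clones and symbols that begin with capitals followed by digits were not ranked. By this rule Ccl7 was the gene most like Mrc1, Pf4, Cbr2 and Ms4a7 over all 16 arrays (r = 0.94 to 0.97). Ccl7, a monocyte chemoattractant, read 7.07, 6.55, 7.06 and 8.54 in PVCre striatum, against 4.39 to 4.97 in PV-tdTomato striatum, and 6.60 to 7.26 in PVCre cortex, against 4.38 to 4.90 in PV-tdTomato cortex. Lyz1 was most like F13a1 (r = 0.96) and Lyz2 most like Lyve1 (r = 0.94), and Cybb, a subunit of the phagocyte NADPH oxidase, was among the first 5 for Mrc1, Pf4, Cbr2 and F13a1 (r = 0.94 to 0.95). Cd163 had other neighbours: Dmrt1i (r = 0.98), Cd163l1, its own paralog (r = 0.97), Lypd3 (r = 0.97), Gcgr (r = 0.96) and H2-Q10 (r = 0.96). The arrays share the line difference, so these values describe likeness over 2 lines as well as over arrays.

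Within the 8 PVCre arrays alone, Ccl7 stayed among the first 5 for Mrc1, Cbr2, Ms4a7 and Lyve1 (r = 0.91 to 0.98). Rps6kc1 was among the first 5 for Mrc1, Pf4, Cbr2, Ms4a7 and Lyve1 (r = 0.91 to 0.94), with means of 6.67 in PVCre against 7.29 in PV-tdTomato striatum and 6.64 against 7.33 in cortex, lower in PVCre where the markers were higher. Cd163 was most like Nectin2 (r = 0.95) and Gdf9 (r = 0.94), neither of which was among the first 5 of any other marker. The narrow range of Cd163 near background limits these values too.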

How the data were processed

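The log2 values that the authors deposited came, per the submitters' processing notes, from RMA run in Affymetrix Expression Console, with version and array grouping not given in the sources used here. Per the labels' protocols, Trizol RNA was used, 5 ng was amplified with the WT PLUS kit and 5.5 µg of cDNA was labelled. Of 72688 probe sets, 6732 were controls and 65956 transcript clusters; 31216 clusters had 1 listed gene, 1534 several and 33206 none listed here. Where a gene had several clusters (364 genes), that with the highest mean stood for it, leaving 30743 genes with no filter on level. No 2 arrays held identical values. Arrays give no read depth, and their number limits the precision.

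A single linear model of all 16 arrays with a mean for each of the 4 groups was fitted in limma 3.58.1 (R 4.3.3), with moderated variances, and p-values were adjusted over all genes by the Benjamini-Hochberg method (threshold 0.05). Correlations used exact permutation tests (scipy 1.17.1, numpy 2.4.6, pandas 2.3.3, Python 3.11.15), and plots matplotlib 3.10.9. Replicates are pools of sorted cells whose mice are not named, so p-values measure the spread between pools. The members and the marker lists were chosen with earlier results of these data known. All 7 markers were named, and of each list up to 4 genes with the smallest p and the 2 largest and 2 smallest differences. The 5 non-member genes most like each marker were named too, leaving out predicted models, clones and symbols that begin with capitals followed by digits. Not every gene that the rule allows is printed.

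Groups share replicate numbers in the titles. With each group's mean subtracted, PV-tdTomato arrays of 1 number in striatum and cortex correlated at r = 0.532 to 0.704 in all 4 pairs. These were taken as pairs, although number 2 matched number 1 best and number 4 matched number 3 best, so the pairing is uncertain. Every other comparison had a lowest same-number value under 0.1, and none was taken as paired. Their values spanned -0.388 to -0.074 (lines, striatum), -0.609 to 0.466 (lines, cortex) and -0.227 to 0.654 (regions, PVCre). In PVCre cortex the numbers of titles and descriptions differ for all 4 arrays. The fits were tested on simulated data for 30743 genes: among 100 genes given a log2 change of 2, the share called was 95% in the striatal line comparison, 96% in the cortical one and 85% for the interaction, and among 100 given a change of 1 it was 77%, 67% and 41%. Only these genes were changed, with noise drawn separately for each gene and array. In the data 15480 genes were called between lines in striatum and 15671 in cortex, so these shares need not hold there. Alternatives were other filters, normalizations, priors, array weights, blocks and sets of arrays, with a random block fitted with statmod 1.5.0. Leaving out the 6 arrays low in Pvalb, the list counts, cortical calls, pair correlations and bounds without striatal PVCre replicate 4, and the correlations with the 2 macrophage lists and among members, were added after the data were seen.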

Additional observations from a re-analysis of the deposited data

Results flagged for a closer look

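F13a1 was at 5.27 on PV-tdTomato striatum replicate 1, far from the other 3 arrays of its group at 5.11 to 5.12. Its gap to the nearest array was 0.954 of the group's range, above Dixon's 95% critical value for 4 samples. Of 32 groups tested, 1 was past that value, and chance gives about 1 in 20.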

How the results depend on the processing

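In all, 31 alternatives gave 768 values, of which 716 kept their direction and their side of the threshold or stayed near the count. All line differences of the 7 markers kept their direction. The Lyve1 call in striatum was lost without the 6 arrays low in Pvalb (1.03), the cortical Ms4a7 call in the 3 cases given above, and Lyve1 in cortex passed with array weights (0.83) and with only the arrays compared (0.63). Leaving out 1 array of the region compared gave 7 markers called higher in striatum and 5 to 6 in cortex; without striatal PVCre replicate 4 all 7 were called in cortex too. Lyve1 and Cd163 could not be tested where genes had to exceed the antigenomic level on 4 arrays.

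That filter left 9799 genes called in striatum, 9857 in cortex and 12259 over both regions, from fewer genes tested, against 15480, 15671 and 19908. The region effect called 762 genes in PVCre arrays, 1477 with array weights, and 493 in PV-tdTomato arrays, 290 with only the arrays compared and 1007 without the low-Pvalb arrays. Of the genes called between regions in PVCre arrays, 73.8% were higher in striatum. This share was 58.3% with only the arrays compared, 60.4% with the replicate block and 62.3% without the low-Pvalb arrays. It was 63.1% with arrays centred on their medians, and 71.0% to 83.0% without 1 array. The interaction called 29 genes, 47 with array weights, 55 with the random block, 163 without the low-Pvalb arrays and 11 to 63 without 1 array. With the replicate number as a block, as the pairing of PV-tdTomato arrays, their region effect had 492 calls. The same block gave 15261 calls between lines in striatum, 15462 in cortex and 19717 over both regions, 662 for the region effect in PVCre arrays and 22 for the interaction, and no marker's call changed.

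Signs turned for region effects and interactions that were not called. Without 1 array the PVCre region effect was -0.22 to 0.78 for Mrc1, -0.61 to 0.37 for Pf4 and -0.37 to 0.41 for Cbr2, and the interaction -0.01 to 0.99 for Mrc1, -0.46 to 0.52 for Pf4, -0.21 to 0.57 for Cbr2 and -0.04 to 0.12 for Cd163. Without the low-Pvalb arrays the region effect was -0.12 for Mrc1 and -0.41 for Cbr2, and the interaction -0.04 for Mrc1, -0.53 for Pf4, -0.24 for Cbr2 and -0.08 for Cd163. With array weights the region effect of Cbr2 was -0.07 and the interactions of Pf4 and Cd163 were -0.09 and -0.01; with the random block the region effect of Pf4 was 0.02, and with quantile normalization its interaction was -0.05. The correlation with the microglial mean became 0.07 for Lyve1 and 0.25 for Cd163 without the 2 farthest arrays. The cause of these changes was not tested. PV-tdTomato levels within background limit every fold change.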
